A study of Mus musculus with 8 samples.

Results

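Tubulins, dyneins and cilia genes were followed in the lungs of Fra-2 transgenic mice. All named genes whose symbols start with Tuba, Tubb, Tubg, Dnah, Dnaic, Dnal, Dync, Dynl or Tekt, or with Bbs or Ift and a digit, were taken. This gave 50 genes of 8741 named genes, against 86 protein-coding genes with such symbols in RefSeq. All 50 had a value on all 8 arrays and entered the tests, which covered 8692 named genes. By symbol, 27 belong to the general cytoskeleton (tubulins, cytoplasmic dynein 1 and dynein light chains), 16 to cilia of all kinds (intraflagellar transport, the BBSome and cytoplasmic dynein 2) and 7 to motile cilia (axonemal dyneins and tektins).

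The tested animals were 4 male mice transgenic for Fra-2, the AP-1 transcription factor encoded by Fosl2, aged 14 weeks and on a C57BL6 x CBA background. Their control was 1 pool that combined the lung RNA of 4 wild-type males, matched for age and background. Each transgenic mouse was hybridised against the pool on 2 arrays of the 2-colour kind, with its RNA in Cy5 on 1 array and in Cy3 on the other, and the 2 arrays were averaged. The promoter that drives the transgene is not given in the sources used here. No named probe was for Fosl2, so the transgene was not checked. The study's mice of 6 and 10 weeks are not analysed here.

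Values are log2 ratios of transgenic lung over the wild-type pool, so 0 means no difference and positive values a higher signal in the transgenic lung. The direction is likely only, since it rests on the order of the channels in the labels. With an inverted ratio, every higher below would read lower, and every lower would read higher. A ratio holds no level, so the presence of a gene or of a cell type in the lung could not be read from it, and levels of different genes could not be set against each other. In whole lung, fewer cells of a type and less RNA per cell cannot be told apart. The pool is 1 control sample, so the tests leave out the spread among wild-type mice. Array medians lay between -0.09 and 0.01, and the arrays of 1 mouse correlated at 0.39 to 0.68. The array of mouse 4 with its RNA in Cy3 was the widest, with a median absolute deviation of 0.65, against 0.33 to 0.38 on the other 7.

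Alpha and beta tubulin pair to build microtubules, and gamma tubulin with its ring complex starts them. Cytoplasmic dynein 1 moves cargo along microtubules, with light chains that many other complexes share. Cilia are built by intraflagellar transport, trains of proteins that carry cargo into the cilium by kinesin and back by cytoplasmic dynein 2, while the BBSome carries membrane proteins. Motile cilia, which in the lung stand on the ciliated cells of the airways and clear mucus, also need axonemal dyneins to beat and tektins to strengthen the axoneme. The program of these cells is switched on by Foxj1 together with RFX factors, which bind the promoters of many cilia genes.

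Promoters are shown for the 4 genes that told the mice apart (Tekt1, Dnali1, Dynlrb2 and Ift74), for Ift57, the member with the lowest mean, and for Bbs5, the member past the test whose promoter held an AP-1 motif. They run from 250 bases before to 50 bases after the start of the gene in RefSeq, build GRCm38.p6, 5′ to 3′ on the strand of the gene. Capitals mark matches to the RFX half-site GTTGCC or to the AP-1 motif TGANTCA on either strand.
Tekt1 promoter, chr11:72361833-72362132, minus strand: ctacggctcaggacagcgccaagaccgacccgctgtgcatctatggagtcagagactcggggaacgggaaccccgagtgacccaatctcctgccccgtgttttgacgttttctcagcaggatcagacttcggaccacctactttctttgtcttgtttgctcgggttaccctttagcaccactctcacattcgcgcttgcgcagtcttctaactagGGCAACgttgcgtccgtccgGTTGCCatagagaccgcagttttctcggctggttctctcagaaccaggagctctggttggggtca
Dnali1 promoter, chr4:125065608-125065907, minus strand: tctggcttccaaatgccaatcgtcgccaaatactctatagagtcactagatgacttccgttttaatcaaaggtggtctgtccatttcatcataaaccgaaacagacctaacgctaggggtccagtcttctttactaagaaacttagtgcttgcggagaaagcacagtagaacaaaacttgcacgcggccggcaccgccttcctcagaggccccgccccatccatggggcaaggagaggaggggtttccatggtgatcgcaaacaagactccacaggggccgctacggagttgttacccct
Dynlrb2 promoter, chr8:116504765-116505064, plus strand: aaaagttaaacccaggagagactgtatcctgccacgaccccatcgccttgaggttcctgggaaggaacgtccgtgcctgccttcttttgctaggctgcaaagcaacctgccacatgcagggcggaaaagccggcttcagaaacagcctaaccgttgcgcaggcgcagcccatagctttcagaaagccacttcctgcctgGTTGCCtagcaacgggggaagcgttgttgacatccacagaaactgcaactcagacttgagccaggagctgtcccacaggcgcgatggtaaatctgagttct
Ift74 promoter, chr4:94614241-94614540, plus strand: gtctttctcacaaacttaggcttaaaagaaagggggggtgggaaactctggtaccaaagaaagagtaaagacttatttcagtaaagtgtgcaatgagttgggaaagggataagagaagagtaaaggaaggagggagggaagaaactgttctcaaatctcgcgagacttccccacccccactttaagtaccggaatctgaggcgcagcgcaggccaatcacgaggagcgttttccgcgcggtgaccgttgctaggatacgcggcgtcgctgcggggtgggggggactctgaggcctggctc
Ift57 promoter, chr16:49699044-49699343, plus strand: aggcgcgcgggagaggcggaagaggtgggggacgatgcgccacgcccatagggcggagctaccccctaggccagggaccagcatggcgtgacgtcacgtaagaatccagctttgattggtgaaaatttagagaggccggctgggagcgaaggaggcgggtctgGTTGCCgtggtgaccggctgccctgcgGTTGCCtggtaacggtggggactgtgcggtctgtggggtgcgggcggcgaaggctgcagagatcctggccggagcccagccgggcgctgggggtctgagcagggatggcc
Bbs5 promoter, chr2:69646921-69647220, plus strand: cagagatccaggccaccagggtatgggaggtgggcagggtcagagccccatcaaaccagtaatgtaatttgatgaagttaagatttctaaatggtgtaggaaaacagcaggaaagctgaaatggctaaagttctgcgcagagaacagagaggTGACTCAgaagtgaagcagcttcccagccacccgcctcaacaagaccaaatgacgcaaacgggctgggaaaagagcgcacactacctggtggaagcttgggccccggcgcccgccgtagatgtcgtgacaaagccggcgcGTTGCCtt
In Tekt1, the RFX half-sites begin 35 and 15 bases before the start, and its other annotated start, not printed, holds 0. The half-site of Dynlrb2 begins 51 bases before the start, and those of Ift57 begin 87 and 60 bases before it. In Bbs5 the AP-1 motif begins 98 bases before the start and the RFX half-site 42 bases after it. Dnali1 and Ift74 hold no match to either motif in these windows. Of the 46 promoters found for 41 of the members, 15 (32.6%) held an RFX half-site, in 13 genes, against 12.5% of all 32851 promoters in the table. The share was 30.4% for the 23 promoters of the general cytoskeleton, 38.5% for the 13 of all cilia and 30.0% for the 10 of motile cilia. Some genes have more than 1 start, and by gene these were 6 of 21, 5 of 13 and 2 of 7. The AP-1 motif stood in 2 (4.35%), those of Bbs5 and Dnah5, against 7.81% of all promoters. The forkhead motif TGTTTAC stood in 1 (2.17%), that of Tubg2, against 3.65%. No overlap was seen between motifs in the printed promoters. These shares are a description of letters, without a test and without matching on base composition.

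The first question was which of these genes differed between transgenic lung and the pool. The members past the test included tubulins, dynein chains and genes of ciliary transport, but none of the axonemal dyneins or tektins. No larger a share of the members was past it than of all named genes. With limma on the mouse means (n = 4 transgenic mice, Benjamini-Hochberg adjusted p under 0.05 over all named genes), 12 of 50 members changed (24.0%). Of all 8692 genes, 31.9% changed, so the members' share was below that of named genes in general. There were 3 members higher (6%), against 13.5% of all genes, and 9 lower (18%), close to the 18.4% of all genes. At an unadjusted p under 0.05, 18 members (36%) stood apart from 0, beside 44.5% of all genes. The median over the members was -0.09, beside -0.01 over all named genes. Of the 12 members, 11 had the same sign on all 8 arrays, and the exception was Ift88, with 7. Without mouse 1, 5 members passed, beside 17.8% of all genes, and without mouse 4, 8 passed, beside 24.2% of all genes.

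**Figure D1:**
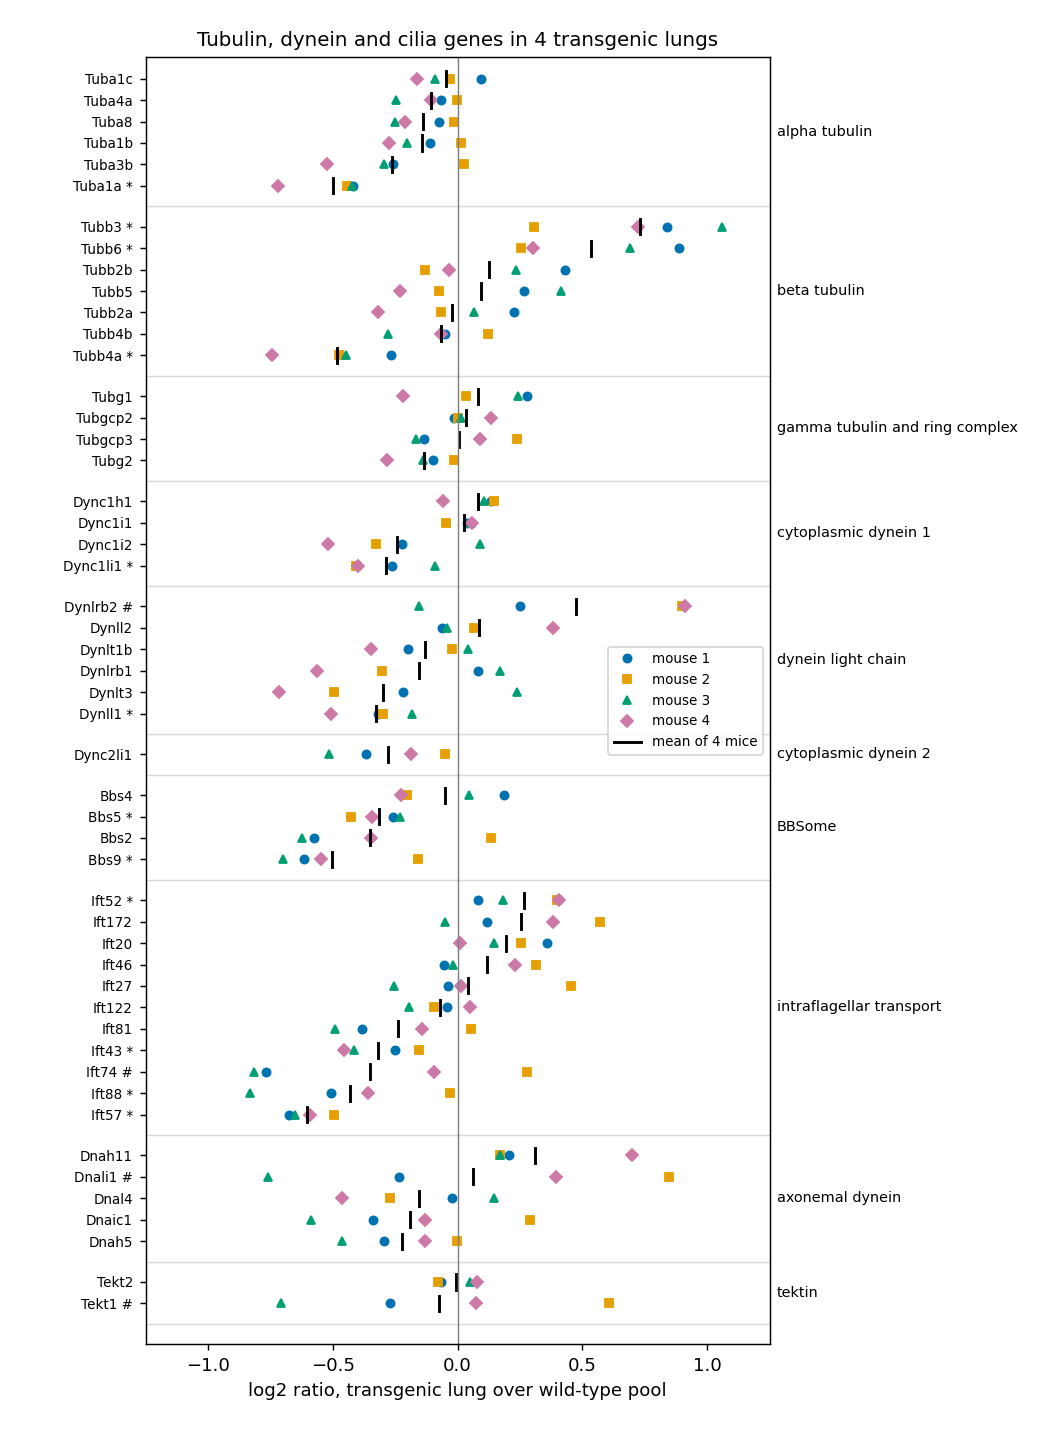
Log2 ratio of each of the 50 genes (rows, grouped by role) in each of the 4 transgenic mice over the wild-type pool. Symbols are mice (mean of 2 arrays), the black tick is their mean, * marks adjusted p under 0.05 for the mean and # adjusted p under 0.05 for a difference between mice. Tubb3 lies furthest to the right by its mean (0.73) and Ift57 furthest to the left (-0.60).

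Beta tubulins held both of the tubulins that rose. Tubb3, known as the neuronal beta tubulin, was at 0.84, 0.31, 1.06 and 0.72 in transgenic mice 1 to 4. All 4 mice lay above 0, with mouse 2 the lowest. The mean of 0.73 ± 0.32 (SD, n = 4, adjusted p = 0.0057 by limma) is a 1.66-fold higher signal. Tubb6, a beta tubulin found in many tissues, was at 0.89, 0.26, 0.69 and 0.30. Mice 1 and 3 were high and mice 2 and 4 closer to 0, with a mean of 0.53 ± 0.31 (adjusted p = 0.0151). The call of Tubb6 was lost without mouse 1 (adjusted p = 0.0556) and without mouse 3 (adjusted p = 0.0503). Tubb4a, best known from brain, fell, with -0.27, -0.48, -0.45 and -0.74 in mice 1 to 4. It was below 0 in all 4 mice, and both of its probes fell (-0.44 and -0.52). Its mean was -0.48 ± 0.20 (adjusted p = 0.0091). The other 4 beta tubulins had means from -0.07 to 0.13 and did not pass the test. Among them, Tubb4b, an isotype known from cilia of airway cells, averaged -0.07 (adjusted p = 0.567), and the widely used Tubb5 averaged 0.09 (adjusted p = 0.563).

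Of the 6 alpha tubulins, 1 fell and none rose. Tuba1a, an isotype abundant in developing neurons, was at -0.42, -0.44, -0.42 and -0.72, with a mean of -0.50 ± 0.15 (adjusted p = 0.0054). All 4 mice were below 0 and mouse 4 stood apart from the other 3. Tuba1b, Tuba1c, Tuba3b, Tuba4a and Tuba8 had means from -0.26 (Tuba3b, adjusted p = 0.0818) to -0.05 (Tuba1c). Gamma tubulin and its ring complex were close to 0, with means from -0.13 to 0.08 and none past the test. The largest in size was Tubg2, at -0.10, -0.01, -0.14 and -0.28, with a mean of -0.13 ± 0.11 (adjusted p = 0.215). Tubulin genes are near-identical over long stretches and probe sequences were not used here, so a probe of one isotype may also have bound another.

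Cytoplasmic dynein 1 had 1 of 4 members past the test. Dync1li1, a light intermediate chain that links the motor to cargo adaptors, was at -0.26, -0.41, -0.09 and -0.40, and it fell by 0.29 ± 0.15 (adjusted p = 0.0353). Its lowest values were in mice 2 and 4. The call was lost without mouse 1 (adjusted p = 0.101), without mouse 2 (0.130), without mouse 4 (0.0897), and on the Cy5 arrays (0.0908) or the Cy3 arrays (0.0584) alone. The heavy chain Dync1h1 averaged 0.08, the intermediate chain Dync1i1 averaged 0.03 and Dync1i2 averaged -0.24 (adjusted p = 0.118).

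Dynein light chains also had 1 member of 6 past the test. Dynll1, a light chain shared by many protein complexes, was at -0.32, -0.30, -0.18 and -0.51, with a mean of -0.33 ± 0.13 (adjusted p = 0.0208). All 4 mice were below 0. Its call was lost without mouse 1 (adjusted p = 0.0749) and without mouse 2 (0.0664). Dynlrb2, a roadblock-type light chain, had the largest mean of the light chains (0.48 ± 0.52, adjusted p = 0.0838) with wide spread, and is taken up below with the differences between mice. Dynll2, Dynlt1b, Dynlrb1 and Dynlt3 had means from -0.30 to 0.09.

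Intraflagellar transport had 3 members that fell and 1 that rose among 11. Ift57, a peripheral subunit of the IFT-B complex, was at -0.68, -0.49, -0.65 and -0.59. The mice lay close together, all below 0, and the mean of -0.60 ± 0.08 (adjusted p = 0.0021) is a 1.52-fold lower signal. Ift88, a core IFT-B subunit whose loss abolishes cilia in mice, was at -0.51, -0.03, -0.83 and -0.36. Mouse 3 was the lowest and mouse 2 near 0, and the gene fell by 0.43 ± 0.33 (adjusted p = 0.0382). The call of Ift88 was lost without mouse 1 (adjusted p = 0.117), without mouse 3 (0.111), without mouse 4 (0.0915) and on the Cy3 arrays alone (0.0746). It was also lost after centring and scaling the arrays (0.0524) and with values beyond 10 kept (0.0609). With values beyond 10 kept the mean of Ift88 stayed at -0.43, so only its adjusted p moved.

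Ift43, a subunit of the IFT-A complex, was at -0.25, -0.16, -0.41 and -0.46, with a mean of -0.32 ± 0.14 (adjusted p = 0.0239). All 4 mice were below 0. It lost its call without mouse 1 (adjusted p = 0.0679), without mouse 3 (0.0858), without mouse 4 (0.0628) and on the Cy3 arrays alone (0.156). Ift52, another core IFT-B subunit, was at 0.08, 0.40, 0.18 and 0.41, and its mean of 0.27 ± 0.16 stood at the threshold (adjusted p = 0.0499). Mice 2 and 4 were the higher ones. Leaving out any 1 of mice 1 to 4 ended its call (adjusted p = 0.0664, 0.171, 0.0898 and 0.125 in turn), as did using the Cy3 arrays alone (0.236), keeping values beyond 10 (0.0613) or taking the median of probes (0.0504). With values beyond 10 kept, and with the median of probes, the mean of Ift52 stayed at 0.27, so only its adjusted p moved. The other 7 intraflagellar transport genes did not pass the test. Of these, Ift172, Ift20, Ift46 and Ift27 had means from 0.04 to 0.26, and Ift122, Ift81 and Ift74 from -0.35 to -0.07.

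In the BBSome, 2 of 4 members fell. Bbs9, a core subunit, was at -0.62, -0.16, -0.70 and -0.55, and Bbs5, a subunit that binds phosphoinositides, at -0.26, -0.43, -0.23 and -0.34. Both were below 0 in every mouse, but mouse 2 was the highest for Bbs9 and the lowest for Bbs5. Their means were -0.51 ± 0.24 (adjusted p = 0.0110) for Bbs9 and -0.32 ± 0.09 (adjusted p = 0.0174) for Bbs5. Bbs5 lost its call without mouse 1 (adjusted p = 0.0587), without mouse 2 (0.0778) and without the widest array (0.0651). On the Cy5 arrays alone its mean was -0.18 (adjusted p = 0.141). Bbs2, a further core subunit, averaged -0.35 ± 0.35 (adjusted p = 0.0767), with mouse 2 above 0 and the others below. Bbs4 averaged -0.05, and its 2 arrays of mouse 1 lay at -0.72 and 1.09, on opposite sides of 0. Dync2li1, the light intermediate chain of cytoplasmic dynein 2, was at -0.37, -0.05, -0.51 and -0.19, with a mean of -0.28 ± 0.20 (adjusted p = 0.0574). All 4 mice were below 0.

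Over the 16 genes of all cilia, 1 rose and 5 fell (37.5%, near the 31.9% of all genes), and the median was -0.26. The 27 genes of the general cytoskeleton had 2 that rose and 4 that fell (22.2%), with a median of -0.07. Of the 7 motile cilia genes, 0 passed the limma test and 2 (Dnah11 and Dnah5) had an unadjusted p under 0.05, and the median of their means was -0.07. The shares of the 3 groups were not tested against each other. The means ran from -0.22 (Dnah5, an outer arm heavy chain, adjusted p = 0.108) to 0.31 (Dnah11, another outer arm heavy chain, adjusted p = 0.0633). Dnah11 was at 0.21, 0.17, 0.17 and 0.70, with mouse 4 apart from the other 3. Its mean was 0.18 without mouse 4 (adjusted p = 0.103) and 0.19 on the Cy5 arrays alone (0.204). It passed the test without the widest array (0.25, adjusted p = 0.0435), after centring and scaling (0.29, 0.0358), and with the mouse as a random block (0.31, 0.0411). Dnaic1, an outer arm intermediate chain, averaged -0.19 ± 0.37, and the light chain Dnal4 averaged -0.15 ± 0.27.

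The second question was whether the 4 transgenic mice differed from each other by more than their 2 arrays did. A limma F test with the dye as a covariate (Benjamini-Hochberg over 8645 genes) separated the mice for 4 of 50 members (8.0%), beside 2.74% of all genes. These were Dnali1 and Tekt1 of the 7 motile cilia genes, Ift74 of the 16 genes of all cilia, and Dynlrb2 of the 27 cytoskeleton genes. The groups go by symbol only, so they do not show where a light chain such as Dynlrb2 works. At an unadjusted p under 0.05, 19 members (38%) differed between mice, beside 20.5% of all genes. The 2 arrays of a mouse share 1 RNA, so this test speaks of these 4 animals only.

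Dnali1, a light intermediate chain of inner dynein arms, was at -0.23, 0.85, -0.76 and 0.40 in mice 1 to 4. It was above 0 in mice 2 and 4 and below 0 in mice 1 and 3, on both arrays of every mouse. Its mean was therefore near 0 (0.06 ± 0.70, adjusted p = 0.865), while the difference between mice had an adjusted p of 0.0217. Tekt1, a tektin of the axoneme, was at -0.27, 0.61, -0.71 and 0.07, with an adjusted p of 0.0476 between mice. Mouse 3 was again the lowest and mouse 2 the highest. Its mean was -0.07 ± 0.56 (adjusted p = 0.792).

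Ift74, which forms the tubulin-binding part of IFT-B with Ift81, was at -0.77, 0.28, -0.82 and -0.09, with an adjusted p of 0.0407 between mice. Mice 1 and 3 were low, mouse 2 was above 0, and the mean was -0.35 ± 0.53 (adjusted p = 0.181). Dynlrb2 was at 0.25, 0.90, -0.16 and 0.91, with an adjusted p of 0.0368 between mice. Mouse 3 was the lowest here too, and mice 2 and 4 were alike at the top. Without the dye covariate the calls between mice of Dynlrb2 (adjusted p = 0.226), Ift74 (0.123) and Tekt1 (0.0692) were lost, and that of Dnali1 was kept (0.0429). Without mouse 3 the mean of Dynlrb2 was 0.69 and passed the test (adjusted p = 0.0208). It also passed on the Cy5 arrays alone (0.69, adjusted p = 0.0254), but not on the Cy3 arrays alone (0.26, 0.362). With the mouse as a random block its adjusted p was 0.040, or 0.0382 with a dye term. The names of Dynlrb2 and Tekt1 rest on a stretch of the annotation where probes of the same gene correlated weakly (Spearman 0.073 over 409 pairs, against 0.224 over all 4802 pairs). Just outside the threshold was Dnaic1, at -0.34, 0.29, -0.59 and -0.13 (adjusted p = 0.0586). Its 2 probes disagreed on mouse 4, at 0.25 and -0.51, and had adjusted p of 0.0766 and 0.359 between mice by the same F test on single probes. Further from the threshold were Ift88 (adjusted p = 0.0982), Tubb6 (0.106) and Bbs2 (0.110). In Tubb6 mouse 1 was the highest and mouse 2 the lowest.

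**Figure D2:**
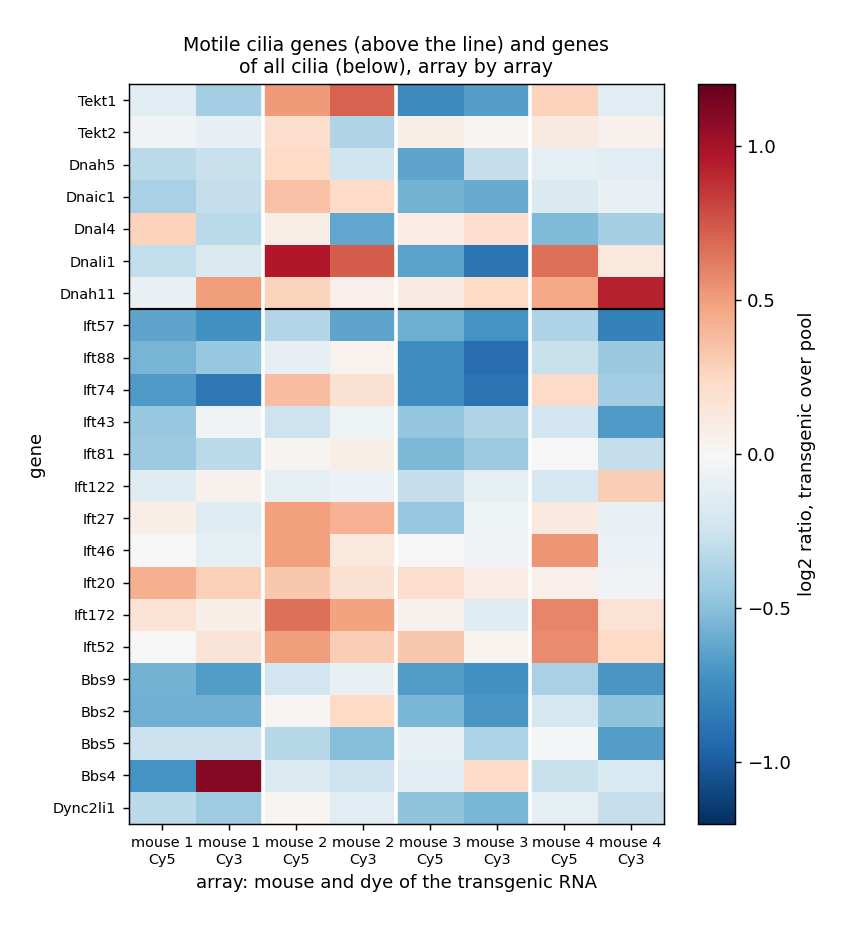
Log2 ratio of transgenic lung over the wild-type pool for the 23 cilia genes (rows) on the 8 arrays (columns, 2 per mouse with the dyes exchanged), red for higher and blue for lower in the transgenic lung. Dnali1 is red on both arrays of mouse 2 and blue on both of mouse 3, and Ift57 is blue on all 8.

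The same order of mice, with mouse 3 the lowest and mouse 2 the highest, held for 4 of 7 motile cilia genes (57.1%), 8 of 16 genes of all cilia and 4 of 27 cytoskeleton genes (14.8%). Over all named genes it held for 9.35%, and over the 237 genes that differ between mice for 36.3%. Both of these sets include cilia genes. The order was noticed in these same mice and is a description. The median over the 7 motile cilia genes was -0.23, 0.17, -0.46 and 0.07 in mice 1 to 4. For the 27 cytoskeleton genes the medians were -0.06, -0.01, -0.04 and -0.22, where mouse 4 was the lowest. Mouse 4 was also the lowest over all named genes, with medians of -0.01, -0.01, -0.02 and -0.06 in mice 1 to 4.

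Other genes of ciliated airway cells, none of them members, were set beside these values. Of a list of 109 genes of the motile axoneme and its control, 41 were measured under the symbols listed. Of the 41, 16 (39.0%) differed between mice. In all 16 mouse 3 was the lowest and mouse 2 the highest, and over all 41 this order held for 27 (65.9%). The 16 were picked by a test on the same arrays, so their order is a description. Spag6l, a gene of the central pair of the axoneme, was at -0.98, 0.30, -1.77 and -0.05 (adjusted p = 0.0049 between mice). The axonemal gene Meig1, known from sperm, was at -0.79, 0.30, -1.72 and 0.00 (adjusted p = 0.0064). The list's medians were -0.19, 0.27, -0.33 and 0.12, in the same order of mice as the motile cilia genes. Foxj1 was at -0.18, 0.27, -0.32 and 0.23 (adjusted p = 0.120 between mice), with a mean of 0.00 (adjusted p = 0.993).

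Against the pool, 1 of the 41 rose and 3 fell (9.76%), below the 31.9% of all genes. Rfx3, an RFX factor of ciliated cells, rose by 0.30 (adjusted p = 0.0278). Mlf1 fell by 0.89, Iqcg by 0.48 and Ccdc96 by 0.27 (adjusted p = 0.0361, 0.0094 and 0.0312). Genes of club cells, the secretory cells beside ciliated cells, followed a like order, with medians of -0.87, 0.07, -1.10 and -0.12 over 19 measured genes. Of these, 4 rose and 8 fell, and 11 of the 19 differed between mice. Retnla, Pon1, Cyp4b1 and Gsta3 had the largest means past the test (5.96, -1.93, -1.38 and -1.23), beside a list median of -0.63. In whole lung the cells behind a signal are not known, so the rise of Retnla cannot be placed in club cells. Sftpb, another gene of the list that rose, is also in the list of alveolar epithelium. The part of either cell type in the values of the members was not tested.

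**Figure D3:**
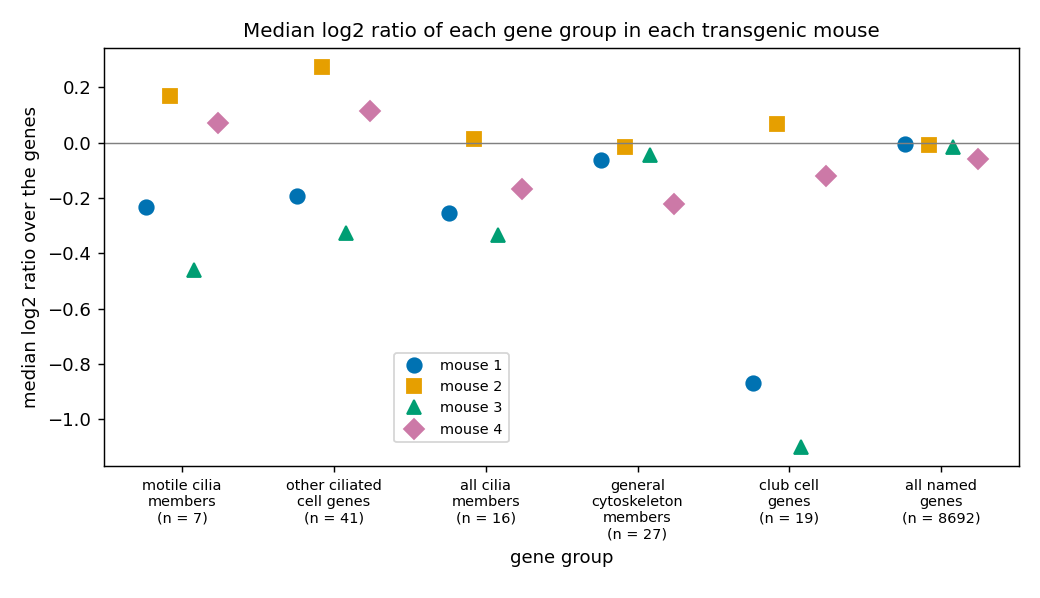
Median log2 ratio, transgenic over pool, of 6 gene groups (horizontal axis, number of genes in brackets) in each of the 4 transgenic mice (symbols). Mouse 3 is the lowest and mouse 2 the highest for motile cilia members (-0.46 and 0.17), other ciliated cell genes (-0.33 and 0.27) and club cell genes (-1.10 and 0.07), while all named genes lie between -0.06 and -0.01.

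Genes that work with the members but bear other symbols gave shares on either side of the background. Of 14 measured genes of intraflagellar transport, the BBSome and ciliary kinesin, 0 rose and 3 fell (21.4%). The GTPase genes Arl3 and Rab23 fell by 0.49 and 0.44 (adjusted p = 0.0084 and 0.0246), and the IFT-A gene Wdr35 fell by 0.27 (adjusted p = 0.0364). Of 22 transition zone and basal body genes, 2 rose and 2 fell (18.2%). Rpgrip1l and B9d2, both of the transition zone, rose by 0.49 and 0.43 (adjusted p = 0.0345 and 0.0121). Plk4, the kinase that starts centriole duplication, fell by 0.68 (adjusted p = 0.0018), and Tmem67 by 0.40 (adjusted p = 0.0318).

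On the cytoskeleton side, 3 of 14 dynactin and dynein regulator genes fell (21.4%) and 0 rose. The dynactin subunit Dctn6 fell by 0.57 (adjusted p = 0.0046), and the dynein regulators Pafah1b1 and Ndel1 by 0.37 and 0.25 (adjusted p = 0.0178 and 0.0403). Among 34 genes of tubulin folding, modification and turnover, 3 rose and 3 fell (17.6%). The largest means among these 6 were those of Stmn2, a tubulin-binding protein of neurons (-0.68), of Ttll12 (0.40), of Sirt2, which can deacetylate tubulin (-0.30), and of the chaperonin subunit Cct2 (-0.30). Microtubule-associated and plus-end proteins had 5 of 32 that rose and 8 that fell (40.6%). Of those past the test, the lowest were the plus-end protein Clip1 (-0.58), Map1b (-0.56) and the kinesin heavy chain Kif5b (-0.50), and the highest was the midzone protein Prc1 (0.53).

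Beside Tubb3, the other 9 measured nerve genes had 1 that rose, Uchl1 (0.48, adjusted p = 0.0056), and 1 that fell, Stmn2 (-0.68, adjusted p = 0.0066), with a median of 0.03. Of 31 cell cycle genes, 22 rose and 1 fell, with a median of 0.41. Macrophage genes had 9 of 15 that rose and 3 that fell, with a median of 1.15, higher in mice 1 and 3 (1.55 and 1.31) than in mice 2 and 4 (0.69 and 0.80). Heart and skeletal muscle genes had 14 of 16 that fell (median -0.66), and fat genes had 9 of 13 that fell and 1 that rose (median -1.03). Goblet and basal cell genes had 5 of 7 that rose and 1 that fell, and alveolar epithelium 1 of 7 that rose and 3 that fell. Neutrophil genes had 4 of 9 that rose and 3 that fell, and B, T and NK cell genes 6 of 9 that rose and 1 that fell. Their part in the values of the members was not tested.

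The 50 genes were read by 69 probes, and 16 genes had more than 1. Tested singly, 14 probes of 13 genes passed (2 higher and 12 lower), beside 25.7% of all 20621 probes. The count was 6 without mouse 1, 8 without mouse 3 and 8 without mouse 4, beside 12.3%, 17.5% and 19.7% of all probes in the same fits. In 8 genes the probes had means of opposite sign. They were 0.30 and -0.31 in Tekt2, a second tektin whose gene-level mean was -0.01, and 0.22 and -0.36 in Ift122, an IFT-A subunit. Of the Ift122 probes, the lower one passed (adjusted p = 0.0324). Dnali1 had 0.32 and -0.19, and the probe with the lower mean differed between mice on its own (adjusted p = 0.0304), as the 1 member probe that did, beside 0.986% of all probes.

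The light chain Dynlt1b had probes at -0.38 (adjusted p = 0.0440) and 0.11. Its relative Dynlt3 had 1 probe that fell (-0.54, adjusted p = 0.0201) and 1 near 0 (-0.06). Dync1h1 had -0.14 and 0.30, Tubgcp2 0.23 and -0.16, Tuba1c -0.23 and 0.14, and the 5 probes of Dynll2 ran from -0.12 to 0.41. No gene had probes called in both directions. Where the probes of a gene disagree, its gene-level mean describes neither.

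**Figure D4:**
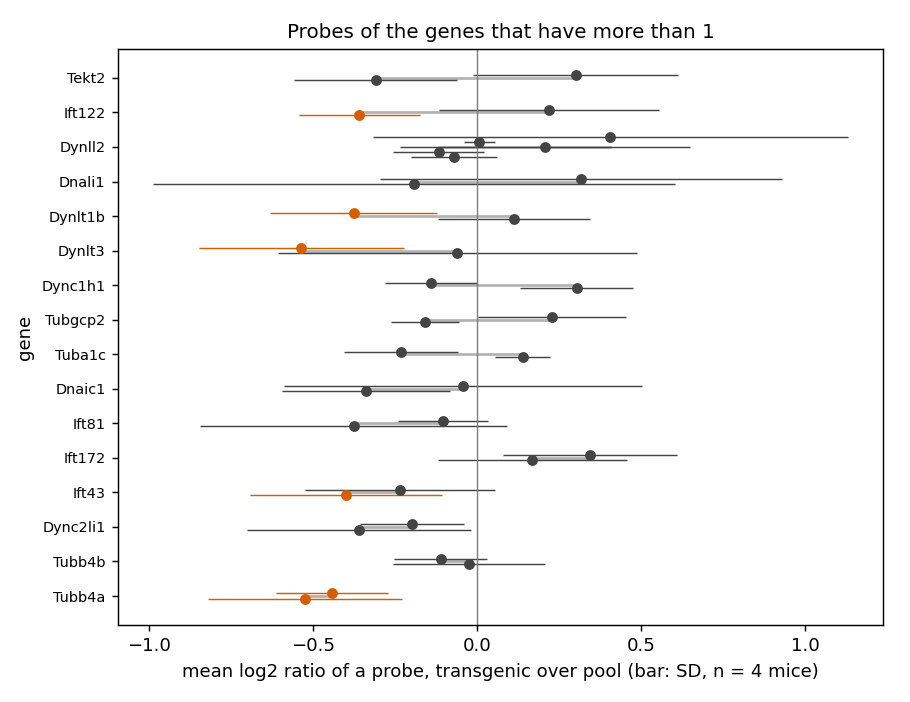
Mean log2 ratio, transgenic over pool, of each probe of the 16 genes with several probes (points, with the SD over 4 mice as bars). Orange points have an adjusted p under 0.05 and dark grey points do not, and grey lines span the probes of a gene. Both probes of Tubb4a lie at the left (-0.44 and -0.52), while those of Tekt2 lie on both sides of 0 (0.30 and -0.31).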

How the data were processed

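Lung total RNA was turned into cDNA and carried Cy3 or Cy5 by indirect labelling, per the labels' protocols. The authors deposited 1 log2 ratio per probe and array. Neither image software nor background correction nor normalization is named by any source at hand, and no intensities were used, so depth and signal over background are unknown and the number of arrays limits the precision. Of the 20794 probes' values, 706 were missing as deposited and 498 beyond 10 in size were set to missing here.

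Gene names come from a platform annotation whose probe number plus 11 gives the row of the value table. The offset was found from the data. Probes of the same gene correlated at Spearman 0.224 there, and at most at 0.054 at other offsets up to 300. In blocks of 1000 numbers another offset was better in the blocks that start at 8000, 11000 and 20000. They name at least 1 probe of 10 members: Ift43, Ift46, Tuba1c, Dync1h1, Dynll2, Dynlrb2, Tubg1, Dnah11, Dnal4 and Tekt1. In all 12296 probes had 1 name, 0 had several and 8498 are unnamed here. Symbols were updated through RefSeq GRCm38.p6.

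Probes of a gene and the 2 arrays of a mouse were averaged, giving n = 4 mice. In R 4.3.3, limma 3.58.1 (lmFit, then eBayes) compared their mean with 0 in a two-sided test with Benjamini-Hochberg adjustment. The fit had 3 residual degrees of freedom and gained 4.27 from the prior. Single probes were tested alike. Differences among mice came from limma's F test over all 8 arrays, with a dye covariate. A limma test of the dye on within-mouse differences called 0 of 8645 genes, with 2299 genes and 8 members at an unadjusted p under 0.05. The fits were tested on simulated data. Python 3.11.15 with pandas 2.3.3 and numpy 2.4.6 made the tables, and matplotlib 3.10.9 the figures.

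The members, the 16 lists of other genes (501 genes, 289 measured under the symbols listed) and the motifs were chosen with earlier results of these data known. Named with values per mouse are members past either test and the largest mean of each role group, and of each list up to 4 genes past the test, and Foxj1. Dnaic1, just outside the threshold between mice, Spag6l and Meig1 were chosen after their values were seen. Alternatives are given in the closing section.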

Additional observations from a re-analysis of the deposited data

Results flagged for a closer look

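In 2 of 19 members checked, 1 mouse lay far from the other 3, by its gap to the nearest mouse over the range of all 4. Chance flags about 1 in 20 such groups. Dnah11 was at 0.6975 in mouse 4, with a gap of 0.929 of the range, and its 2 arrays of that mouse gave 0.47 and 0.93. Tuba1a was at -0.719 in mouse 4, with a gap of 0.92 of the range, and its 2 arrays of that mouse gave -0.50 and -0.94. In both genes the value of larger size came from the widest array.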

How the results depend on the processing

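Under the 16 alternatives, 5 of the 12 members past the test stayed past it in every one: Bbs9, Ift57, Tuba1a, Tubb3 and Tubb4a. The other 7 each lost it under at least 2. Leaving out 1 mouse gave 5 to 11 members past the test, in place of 12, with 5 without mouse 1, beside 17.8% to 24.2% of all genes. For single probes it gave 6 to 11, in place of 14. All 8 arrays with the mouse as a random block gave 18, or 15 with a dye term, and the Cy3 arrays alone gave 8, beside 3244, 3038 and 1912 of all genes, in place of 2770. Between mice, 4 members became 1 (Dnali1) without the dye covariate and 8 after centring and scaling the arrays, while the share of all genes moved to 1.2% and 5.62%, beside 2.74%. Leaving out 1 mouse moved the mean of Dnali1 between -0.199 and 0.336, and that of Tekt1 between -0.302 and 0.136. Some means that had not passed the test changed sign: Dnali1 to -0.199 without mouse 2, -0.0489 without mouse 4 and -0.0473 on the Cy3 arrays alone, Tekt1 to 0.136 without mouse 3, and Tubg2 to 0.0288 on the Cy3 arrays alone. Leaving out the widest array, chosen after seeing the data, gave 12, of which 11 were among the 12. The cause of these changes was not tested. For single genes, 266 values kept their direction and side of the threshold, 33 lost a call, 9 gained one and 5 turned. No analysis paired across groups was possible because the arrays form only 1 group, so no groups share replicate numbers. The dye-swapped arrays of a mouse were averaged, or fitted as a block as above. Signal over background was not used here, so dim probes could not be set apart.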

Other observations

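Some genes outside the members, and matched to no list by symbol, also differed between the transgenic mice, and were named after their values were seen. Drc3, a subunit of the nexin-dynein regulatory complex of the axoneme, was at -0.49, 0.89, -1.17 and 0.59 in mice 1 to 4 (adjusted p = 0.0134 by the limma F test). The list of ciliated cell genes holds Drc3 under its older symbol Lrrc48, so it was not matched or counted there. Ccdc33 was at -0.14, 0.88, -0.84 and 0.40, and Tsnaxip1 at -0.04, 0.90, -0.75 and 0.49 (adjusted p = 0.0134 and 0.0139). In all 3 mouse 3 was the lowest and mouse 2 the highest, as in Dnali1 and Tekt1. This order was not particular to cilia genes. It also held for Acsm1, Zfyve1 and Alas1, for 9 of 19 club cell genes, and for 36.3% of the 237 genes that differ between mice. The 237 include cilia genes, so their share is not that of other genes alone. Myb, a transcription factor gene that acts in the making of ciliated cells, was at -0.56, 0.57, -0.58 and 0.81 (adjusted p = 0.0134).

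Other genes ran with mice 1 and 3 high. Arg1, which encodes arginase 1, was at 2.24, 0.50, 2.00 and 0.56 (adjusted p = 0.0049), and the cathepsin gene Ctsb at 1.32, 0.24, 1.35 and 0.38 (adjusted p = 0.0169). Ctsl, another cathepsin gene, was at 1.56, -0.59, 1.44 and -0.59 (adjusted p = 0.0038). In mice 1 and 3 the median of the 7 motile cilia genes was lower (-0.23 and -0.46) than in mice 2 and 4 (0.17 and 0.07), while Dnal4, Dnah11 and Tekt2 did not follow that order.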
